A study of Mus musculus with 2 samples.

Results

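Heat shock proteins and their co-chaperones were compared between DX5- and DX5+ natural killer (NK) cells, which had been sorted from livers of naive wild-type B6 mice. The members were the genes whose symbols start with Hspa, Hspb, Hspd, Hspe, Hsph, Hsp90, Dnaja, Dnajb or Dnajc, or with Bag and a digit, and that had a probe set annotated to them alone. This gave 78 of 18193 genes, and each was read through whichever of its probe sets was brightest (mean log2 intensity of both arrays). The rule goes by spelling, so it also took Hspbp1, Hspb11 and Hspbap1, which are not small heat shock proteins, and it left out Hsp90ab1, for which no probe set was annotated to 1 gene.

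Both groups were gated as NK1.1+ CD3- by flow sorting and differed in DX5 staining, with 1 Affymetrix array of biotin-labelled RNA for each (n = 1). DX5 is an antibody against integrin alpha 2, and NK1.1 is a surface receptor of NK cells in this strain. The sources used here do not give how many mice went into an array. Because neither population had a replicate, no test between them was possible and every fold describes this pair of arrays only. Each probe set has 1 deposited MAS5 intensity per array, a linear signal summarised over its probes. A gene counted as detected when it reached 98.4 in DX5- cells or 107 in DX5+ cells, limits set from gene families with little use in these cells. The log2 ratio is DX5- minus DX5+, and where only 1 array reached its limit the fold is a lower bound.

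Heat shock proteins are molecular chaperones, which hold unfolded proteins and help them to reach or regain their shape. Hsp70 proteins bind and release clients in an ATP cycle, J-domain proteins (the Dnaj genes) deliver clients and start ATP hydrolysis, and nucleotide exchange factors such as the Hsp110 and BAG proteins end it. Hsp90 takes over many signalling proteins, while Hspd1 and Hspe1 form the folding chamber of mitochondria. Some members are present in every cell, and others are switched on by heat shock factor 1 under heat, oxidants or other damage to proteins.

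Both arrays were checked on their control probe sets and on cell markers. The 3' to 5' intensity ratio of the actin control was 1.73 for DX5- cells and 1.62 for DX5+ cells. Of 18 hybridisation spike-in probe sets 18 were dimmer for DX5- cells, by a median log2 ratio of -0.22. Of the NK cell marker list, 11 of 11 genes on the array were detected, with Ncr1 at 2390 and 1788. In log2 ratio 5 were above 0 and 6 below. Klrd1 and Klre1 were 1.71-fold and 1.83-fold higher in DX5- cells, and Prf1 was 2.89-fold lower (3108 and 8978). Itga2, the DX5 antigen gene, read 29.0 and 105.2, below the limit on both arrays but just under the DX5+ limit of 107. With the Crybg genes, which are expressed here, left out of the limit (76.0 and 82.25), Itga2 would pass on the DX5+ array only. A value this close to the limit makes its RNA a weak check of the sort. The 9 listed NK subset markers split, 4 brighter for DX5- cells (such as Cxcr6, 7425 and 772) and 5 dimmer (such as Eomes, 1991 and 16107).

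Of the 78 members 62 were detected, 59 of them on both arrays and 3 on the DX5+ array only. At least 2-fold higher in DX5- cells were 3 members, Dnaja4, Hspa1b and Hsph1, or 4.84% of those detected, against 3.61% of 9860 detected genes. No member was at least 2-fold lower, against 5.37% of all detected genes. At 1.5-fold 10 members were higher (16.1%, background 10.6%) and 3 were lower (4.84%, background 13.5%). The other 49 were counted within 1.5-fold. Among them are the 3 detected on the DX5+ array only, whose folds are lower bounds and may pass either threshold. The median log2 ratio was 0.046 over the detected members and -0.013 over all detected genes, and 56.5% of members were above 0 against a background of 48.0%. Scaling to the spike-in controls moved the median of all genes to 0.21 and that of the members to 0.27, and put 45 members above 0 in place of 35 (43 with median centring). The count at 2-fold is thus near the background, and the members as a whole sat close to the middle of the array.

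**Figure D1:**
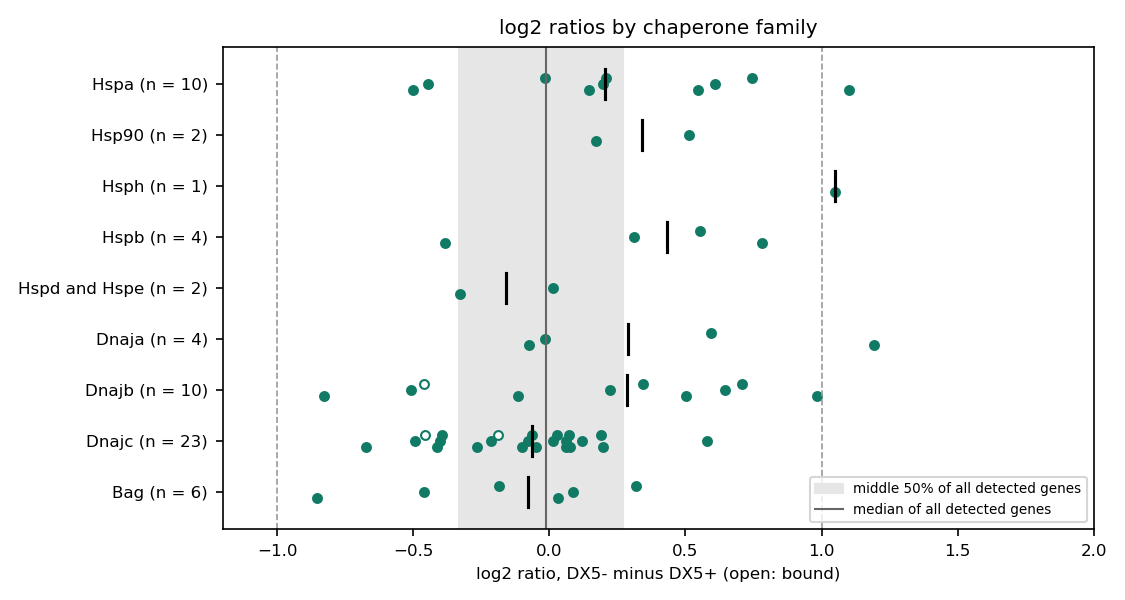
Log2 ratio (DX5- minus DX5+) of each of the 62 detected members, by family, with 1 array per population. Points are genes, open points are lower bounds, black bars are family medians, the grey band is the middle 50% of all detected genes, and dashed lines mark 2-fold; Dnaja4, Hspa1b and Hsph1 lie beyond the right-hand line and no member lies beyond the left.

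The families spread unevenly. Family medians above 0 were those of Hspa (0.20, 10 detected), Hsp90 (0.34, 2), Hspb (0.43, 4), Dnaja (0.29, 4) and Dnajb (0.28, 10), beside the single Hsph gene. The median was -0.063 for 23 Dnajc genes, -0.078 for 6 Bag genes and -0.16 for the pair Hspd1 and Hspe1. With the arrays scaled to the spike-in controls these 3 medians became 0.17, 0.15 and 0.071, and with median centring those of Dnajc and Bag became 0.087 and 0.072, so their sign depends on the scaling.

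Of the members 48 had more than 1 probe set, so the same gene could be read more than once on each array. In 4049 genes 2 or more probe sets passed both limits, and their log2 ratios varied within a gene with an SD of 0.32, and over 31 such members with an SD of 0.30. In 19 of these 31 members (61.3%) every probe set was higher in DX5- cells, and in 3 (9.68%) every one was lower. Over all such genes the shares were 29.5% and 32.5%. The 3 members lower with every probe set were Dnajb4, Hspa4l and Dnajc13.

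**Figure D2:**
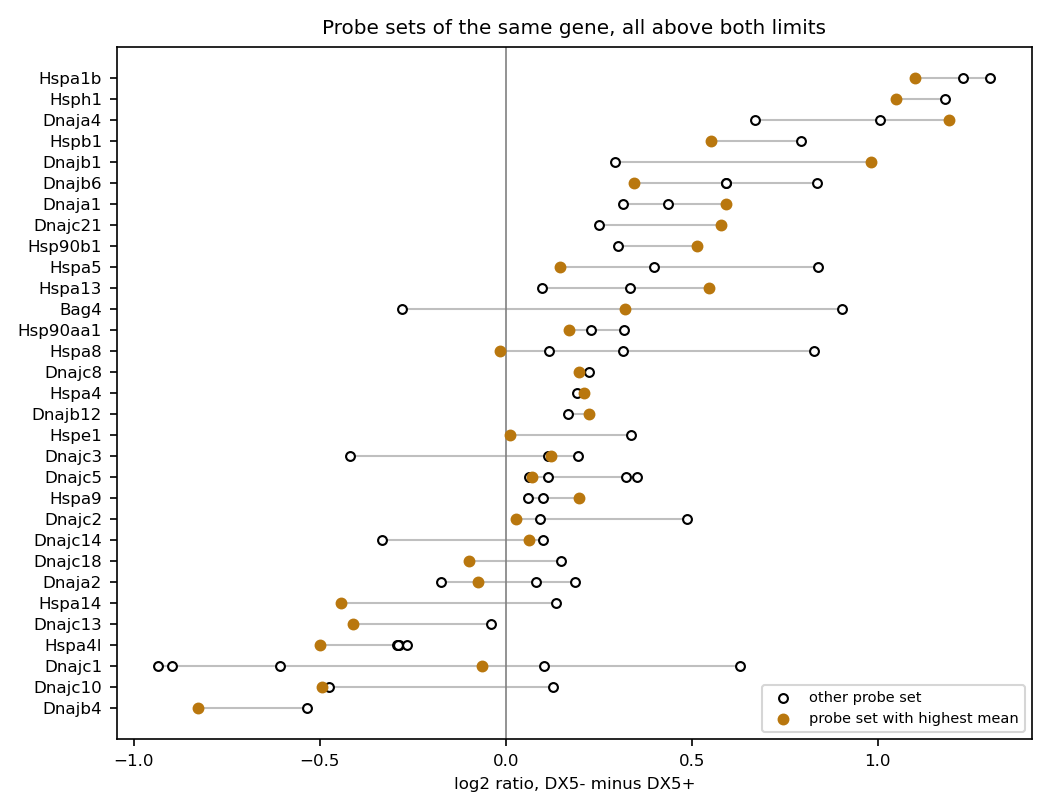
Log2 ratio of every probe set above both limits for the 31 members with at least 2 of them, ordered by the gene's median. Filled points are the probe sets with the highest mean, which stand for the gene; all 3 of Hspa1b and both of Hsph1 lie above 1, whereas Bag4, Dnajc1 and Dnajc3 have probe sets on both sides of 0.

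Among Hsp70 genes the stress-inducible pair Hspa1a and Hspa1b was higher in DX5- cells, while the constitutive Hspa8 read nearly the same on both arrays with its brightest probe set and higher in DX5- cells with its others. The brightest Hspa1b probe set read 15751 against 7346, a 2.14-fold difference. Its other probe sets gave 2.34-fold (11216 and 4784) and 2.47-fold (8042 and 3259). Of all detected genes 2.89% had a higher ratio than Hspa1b. Hspa1a, its neighbouring near-copy, read 3300 and 2164, 1.52-fold higher. Both genes encode almost the same protein, so how far these probe sets tell them apart is uncertain.

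Their promoters are also nearly identical. RefSeq promoters (GRCm38.p6, 250 bases before to 50 after the annotated start) were listed for 64 of the 78 members, under 82 starts. The promoters of Hspa1b (chr17:34959189-34959488, minus strand) and Hspa1a (chr17:34972107-34972406, minus strand) match at 296 of 300 positions. They are shown because both genes were higher by at least 1.5-fold and carry the same heat shock motif. Capitals mark GAANNTTC, a pair of facing heat shock units, which begins 104 bases before the start.
Hspa1b: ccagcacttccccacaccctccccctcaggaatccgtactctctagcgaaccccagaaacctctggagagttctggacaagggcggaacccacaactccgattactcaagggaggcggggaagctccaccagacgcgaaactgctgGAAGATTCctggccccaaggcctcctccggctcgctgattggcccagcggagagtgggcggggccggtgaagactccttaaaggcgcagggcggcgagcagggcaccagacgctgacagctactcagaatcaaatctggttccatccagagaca
Hspa1a: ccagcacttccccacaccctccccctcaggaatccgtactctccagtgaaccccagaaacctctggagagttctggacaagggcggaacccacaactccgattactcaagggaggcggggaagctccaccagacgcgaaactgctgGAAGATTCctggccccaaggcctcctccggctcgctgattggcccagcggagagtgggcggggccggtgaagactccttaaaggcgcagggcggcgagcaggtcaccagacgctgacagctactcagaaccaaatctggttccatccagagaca

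Hspa8, the constitutive cytosolic Hsp70, read 32713 for DX5- and 33093 for DX5+. That probe set is of a type that may cross-hybridise with other transcripts (_x_at). Its other probe sets gave 24425 against 22526, 22715 against 18260 and 1175 against 661, so the last was 1.78-fold higher in DX5- cells. Without _x_at and _s_at probe sets its log2 ratio was 0.31, and with spike-in scaling 0.21, against -0.017 as deposited.

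Further Hsp70 genes lay between. Hspa2, an Hsp70 best known from the testis, read 2290 and 1367, 1.67-fold higher in DX5- cells. Hspa13, a microsomal Hsp70-like protein, was 1.46-fold higher (2804 and 1921), with the 3 probe sets above both limits in that direction. Hspa4 (7537 and 6517) and the mitochondrial Hspa9 (5737 and 5007) were 1.16-fold and 1.15-fold higher, although the ratio of Hspa4 was -0.030 in the mean over its probe sets. Lower in DX5- cells were Hspa14, which works on the ribosome (1145 and 1558, though its second probe set had a log2 ratio of 0.13), and Hspa4l, an Hsp110-type relative of Hspa4 (230 and 326, 1.41-fold). Hspa4l was lower with 5 of 5 probe sets, by log2 ratios from -0.50 to -0.26. It was dim, and with the 99th percentile limit (377 in DX5- cells) only a bound of 0 was left for its log2 ratio. Hspa12a, Hspa12b and Hspa1l were below the limit on both arrays.

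Hsph1, which encodes Hsp110, the exchange factor and partner of the inducible Hsp70s, was 2.07-fold higher in DX5- cells (6370 and 3078). Its second probe set gave 2.27-fold (4114 and 1815). Its promoter (chr5:149636287-149636586, minus strand) is shown because it holds the longer heat shock motif. Capitals mark TTCNNGAA, which begins 33 bases before the start, and a run of 3 units (TTCNNGAA followed by NNTTC), which begins 36 bases after it. A second RefSeq start of the gene puts that run 15 bases after the start.
Hsph1: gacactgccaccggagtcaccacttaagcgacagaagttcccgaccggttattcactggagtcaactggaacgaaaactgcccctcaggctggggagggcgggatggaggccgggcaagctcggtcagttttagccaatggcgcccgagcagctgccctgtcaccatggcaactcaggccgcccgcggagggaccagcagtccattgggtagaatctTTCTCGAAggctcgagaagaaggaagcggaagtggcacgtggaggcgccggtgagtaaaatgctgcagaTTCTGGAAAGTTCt

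Among the J-domain partners of Hsp70, classes A and B held several of the largest differences. By its brightest probe set Dnaja4 had the highest ratio of all members, 2.29-fold, at 1215 against 531. Its other probe sets gave 2.01-fold (661 and 329) and 1.59-fold (733 and 461). In the mean over probe sets its log2 ratio was 0.96, which is under 2-fold and below those of Hspa1b (1.21) and Hsph1 (1.12). With the brightest probe sets 2.41% of detected genes had a higher ratio. Dnajb1 (Hsp40), the classical stress-inducible partner of Hsp70, followed at 1.97-fold, 11727 against 5938. A second Dnajb1 probe set gave 1.23-fold (4690 and 3828), and in the mean over probe sets the log2 ratio was 0.64 instead of 0.98.

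Dnaja1, an abundant farnesylated partner of Hsp70, read 19054 and 12633, 1.51-fold higher in DX5- cells, and its 3 probe sets were higher, though their mean log2 ratio of 0.45 was within 1.5-fold. Dnaja2, a close relative, read 11208 and 11807, a log2 ratio of -0.075 that became 0.15 with spike-in scaling. Dnaja3, the mitochondrial member, read 159 and 161, a ratio of -0.014 that became 0.21. The promoter of Dnaja4 (chr9:54699309-54699608, plus strand) carries GAANNTTC at 90 and at 52 bases before the start, and that of Dnaja1 carries it once, as the stretch at chr4:40722324-40722371, plus strand shows. RefSeq lists 2 starts for Dnaja4 and 3 for Dnaja1, and the matches lie only in the window of the start used here. Capitals mark the matches.
Dnaja4: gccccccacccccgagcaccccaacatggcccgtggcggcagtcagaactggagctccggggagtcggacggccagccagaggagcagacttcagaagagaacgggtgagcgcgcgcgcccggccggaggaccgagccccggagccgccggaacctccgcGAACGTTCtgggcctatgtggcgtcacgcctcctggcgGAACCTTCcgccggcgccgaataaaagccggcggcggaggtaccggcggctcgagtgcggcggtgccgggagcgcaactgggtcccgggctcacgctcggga
Dnaja1: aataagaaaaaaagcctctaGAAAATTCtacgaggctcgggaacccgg

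Class B held members on both sides. Dnajb9, a J protein of the endoplasmic reticulum induced by the unfolded protein response, was 1.56-fold higher in DX5- cells (14453 and 9236). Dnajb13, an axonemal protein of cilia, was 1.63-fold higher but dim (213 and 131). Dnajb6, which keeps aggregation-prone proteins in solution, read 15963 and 12560, 1.27-fold, and its other 3 probe sets gave 1.51-fold, 1.51-fold and 1.79-fold. Against this direction, Dnajb4, a close relative of Dnajb1, was 1.77-fold lower (3693 and 6548), and its second probe set had a log2 ratio of -0.54. Dnajb5, another relative, read 156 and 222, whereas its second probe set read 126 and 105 and was above the limit in DX5- cells only. Dnajb5, Dnajb6 and Dnajc13, and below Dnajc1, Dnajc3, Dnajc21 and Dnajb11, are named after their values were seen. Dnajb14, a J protein anchored in the endoplasmic reticulum membrane, was at least 1.38-fold lower, at 85.7 against 135. Dnajb3, Dnajb7 and Dnajb8 were below the limit on both arrays.

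The promoters of Dnajb6 and Dnajb4 are set side by side because they share TTCNNGAA and lie on opposite sides in the ratios. The stretch of Dnajb6 is chr5:29735832-29735884, plus strand, where TTCNNGAA overlaps GAANNTTC in a run of 3 units that begins 46 bases before the start. That of Dnajb4 is chr3:152193832-152193879, minus strand, with the match 14 bases before the start. RefSeq lists 2 starts for Dnajb4, and the match lies only in the window of the start used here. Capitals mark the motifs.
Dnajb6: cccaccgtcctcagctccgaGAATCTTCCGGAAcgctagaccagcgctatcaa
Dnajb4: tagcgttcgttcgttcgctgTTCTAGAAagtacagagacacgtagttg

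Class C is a mixed group of proteins that share little beyond the J domain, and 1 of its members was seen to pass 1.5-fold. Of 27 genes 23 were detected, and 22 of them were counted within 1.5-fold as deposited. The log2 ratios ran from -0.67 to 0.58, with Dnajc16 and Dnajc28 entered as bounds. Whether these 2 passed 1.5-fold is not known. Dnajc25 was 1.59-fold lower (270 and 431), but its log2 ratio of -0.67 became -0.52 with median centring and -0.44 with spike-in scaling, both within 1.5-fold. With the 99th percentile limit only a bound of -0.19 was left, which does not tell whether the fold passed 1.5. At the high end stood Dnajc21, a factor of ribosome assembly, with 1581 against 1059. Dnajc16 (87.0 and 135) and Dnajc28 (45.2 and 112) reached the limit on the DX5+ array only and were lower in DX5- cells by at least 1.37-fold and by at least 1.14-fold. The 6 probe sets of Dnajc1 ran from -0.93 to 0.63, so that gene has no settled direction. Dnajc22, Dnajc5b, Dnajc5g and Dnajc6 were below the limit on both arrays.

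**Figure D3:**
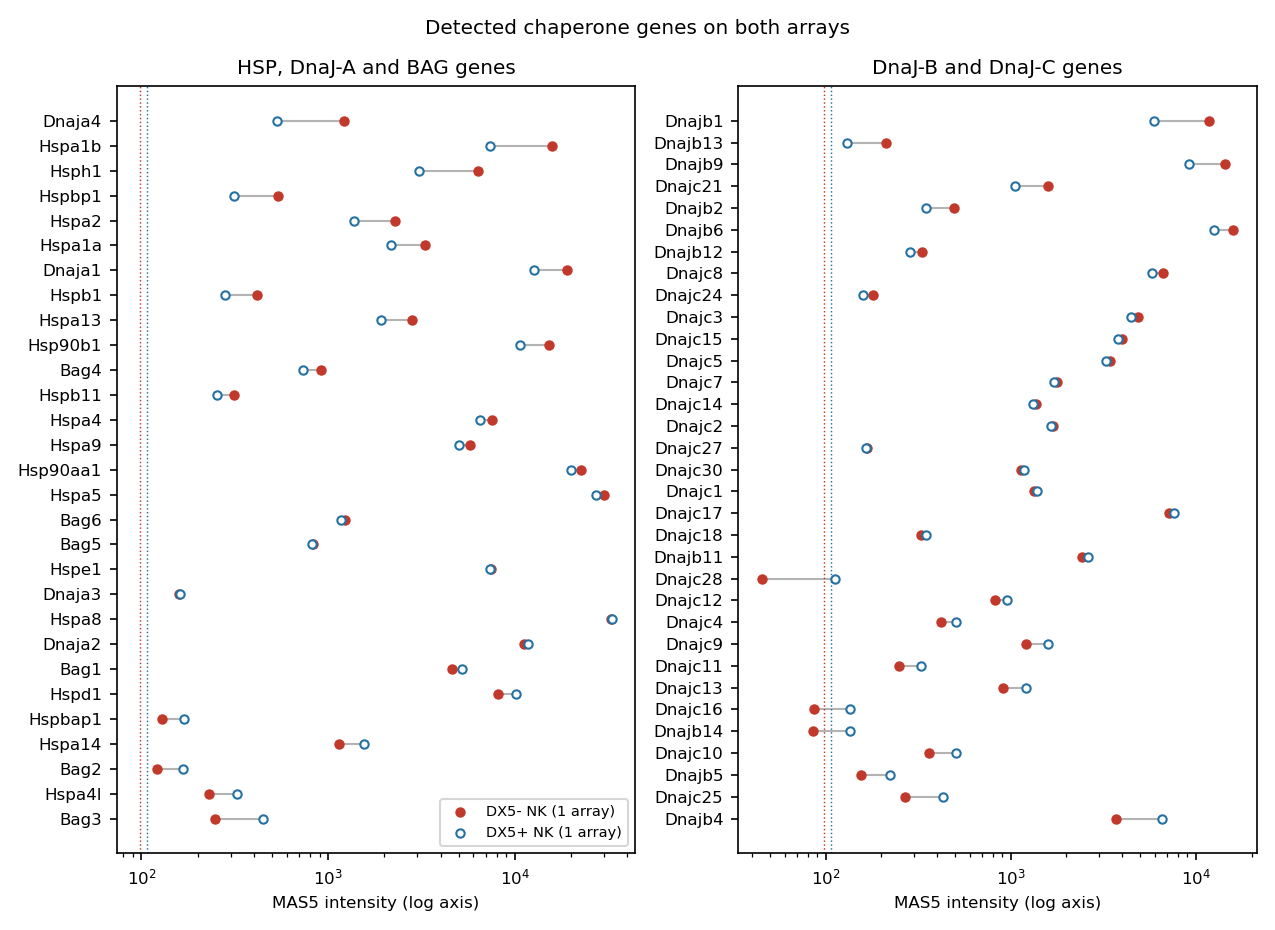
MAS5 intensity (log axis) of the 62 detected members on the DX5- array (filled) and the DX5+ array (open), ordered by log2 ratio within each panel. Dotted lines are the detection limits, 98.4 and 107; most pairs nearly coincide, and the widest gaps at the top belong to Dnaja4, Hspa1b, Hsph1 and Dnajb1, with Bag3 and Dnajb4 at the bottom, while the wide gap of Dnajc28 reaches below the limit.

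Both Hsp90 genes among the members lay within 1.5-fold as deposited. Hsp90aa1, the inducible cytosolic form, read 22588 and 20073, 1.13-fold higher in DX5- cells, with its 3 probe sets above both limits higher. Hsp90b1, the endoplasmic reticulum form known as Grp94, was 1.43-fold higher (15193 and 10638), and its second probe set had a log2 ratio of 0.30. Its log2 ratio of 0.51 as deposited became 0.66 with median centring and 0.74 with spike-in scaling, both past 1.5-fold.

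The small heat shock proteins were mostly below the limit. Of 10 genes under the stem Hspb 4 were detected, and Hspb2, Hspb3, Hspb6, Hspb7, Hspb8 and Hspb9 stayed below the limit on both arrays. Hspb1 (Hsp25), the widely expressed member, read 414 and 282, 1.47-fold higher in DX5- cells, and 1.73-fold with its second probe set. The remaining 3 carry the stem by name only. Hspbp1, an exchange factor that releases clients from Hsp70, was 1.72-fold higher (541 and 315). Hspb11, a protein of ciliary transport, read 314 and 253, and Hspbap1 read 129 and 169.

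In mitochondria, the chaperonin Hspd1 (Hsp60) read 8096 and 10161, 1.26-fold lower in DX5- cells, and its lid Hspe1 (Hsp10) read 7421 and 7356. The log2 ratio of Hspe1 was 0.013 as deposited, -0.060 with quantile normalization and 0.34 without _x_at and _s_at probe sets, where its second probe set (3516 and 2782) stands for it. Both genes share 1 promoter region that is read in opposite directions, and their RefSeq windows overlap over 285 bases. The stretch shown from the Hspe1 side (chr1:55088039-55088096, plus strand) holds the longest run of heat shock units among the printed members, in capitals, and yet neither gene differed by 1.5-fold.
Hspe1: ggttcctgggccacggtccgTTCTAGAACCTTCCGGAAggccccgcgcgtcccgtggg

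In the endoplasmic reticulum, Hspa5 (BiP), its main Hsp70, read 30092 and 27218 with the brightest probe set, 1.11-fold, and 1.32-fold and 1.79-fold with the others. Dnajb11, a partner of BiP, read 2421 and 2622, and Dnajc3, an inhibitor of stress-activated translation kinases, read 4848 and 4458. The stretches of Hspa5 (chr2:34772005-34772063, plus strand) and Hsp90b1 (chr10:86705513-86705676, minus strand) show in capitals the endoplasmic reticulum stress element (CCAAT, a spacer of fixed length and CCACG), which Hsp90b1 carries once on each strand.
Hspa5: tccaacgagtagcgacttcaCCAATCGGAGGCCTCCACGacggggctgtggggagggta
Hsp90b1: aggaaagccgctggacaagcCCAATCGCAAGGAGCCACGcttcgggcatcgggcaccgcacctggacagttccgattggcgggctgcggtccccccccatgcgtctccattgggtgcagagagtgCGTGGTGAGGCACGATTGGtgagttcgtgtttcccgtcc

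BAG proteins release clients from Hsp70 and link it to degradation. Bag3, the heat-inducible member that works with Hspb8 in selective autophagy, was 1.81-fold lower in DX5- cells (248 and 448), the lowest ratio of all members as deposited, although Dnajb4 was lower with quantile normalization (-0.86 against -0.78 on the log2 scale) and with a pseudocount of 50 (-0.82 against -0.74). It thus lay on the opposite side from Hspa1b, Hsph1 and Dnajb1. A stricter limit, at the 99th percentile, was 377 in DX5- cells and 158 in DX5+ cells, so Bag3 fell below it in DX5- cells only. This left a bound of -0.25 for the log2 ratio of Bag3, against -0.86 with the limit used here. The ratio of Dnajb4 was -0.83 with either limit. Bag2, an inhibitor of the ubiquitin ligase that acts on Hsp70 clients, was 1.38-fold lower (121 and 166). Bag1 read 4596 and 5229, with a log2 ratio of -0.19 that became 0.042 with spike-in scaling. Bag4 (921 and 738), Bag5 (835 and 817) and Bag6 (1238 and 1166) were within 1.25-fold, and the 3 probe sets of Bag4 ran from -0.28 to 0.90.

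Heat shock motifs were found in promoters of members on both sides of 0. The 3-unit heat shock motif, GAANNTTC followed by NNGAA or TTCNNGAA followed by NNTTC on either strand, was found in 6 of 82 member promoters (7.32%) and in 0.603% of all 32851 promoters. These belonged to Hsph1, Dnajb6, Hspe1 and Hspd1, whose log2 ratios were 1.05, 0.35, 0.013 and -0.33. The 6 are not separate sites, because Hsph1 and Dnajb6 were counted under 2 starts each and Hspe1 and Hspd1 share 1 promoter region. The shorter GAANNTTC or TTCNNGAA, contained in it, was found in 23.2% of member promoters and 15.1% of all. It was present at both extremes, in Dnaja4 and in Bag3, whose match begins 42 bases after the start and is shown in capitals below (chr7:128523605-128523632, plus strand). Dnajb1 is among the 64 with a promoter and none of these letters were found in its window, which says only that these letters are not there. The endoplasmic reticulum stress element was found in 3 member promoters (Hspa5, Hsp90b1 and Dnajc3) and in 0.119% of all, and its second form (ATTGG, 1 free base and CCACG) in that of Dnajb11 and in 0.0365% of all.
Bag3: aagttctctggatgggaccaGAAGTTTC

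The other genes of the pathway, from 6 lists with 72 detected genes outside the rule, split evenly at 1.5-fold. At this threshold 4 were higher (5.56%, background 10.6%) and 4 lower (5.56%, background 13.5%), so both shares were below those of all detected genes. The median log2 ratio was 0.056. Hsf2, a heat shock transcription factor, was 2.70-fold lower in DX5- cells (147 and 397), while Hsf1 had no probe set of its own. In DX5- cells Hsf2 was below the 99th percentile limit of 377, so with that limit its fold would be only a bound. Of 13 Hsp90 co-chaperones 10 were above 0 with a median of 0.18, led by Chordc1 at 1.52-fold (2179 and 1433). The 14 subunits of the TRiC chaperonin and prefoldin had a median of -0.00091, with Pfdn2 1.73-fold higher. Among 24 genes of endoplasmic reticulum folding and its stress response the median was 0.056. Eif2ak3, which encodes the stress sensor kinase PERK, was 2.25-fold higher (12298 and 5458). Sel1l, a part of the degradation machinery, was 1.90-fold lower, and the sensor Atf6 was also lower (915 and 1374). Chac1 was 1.71-fold lower but dim (109 and 186), and like Hsf2 it did not reach 377 in DX5- cells. Hsp70 co-chaperones outside the rule (10 genes, median 0.077) held no gene counted past 1.5-fold, though 1 of them is known only as a lower bound. The 12 mitochondrial chaperones and proteases (median 0.028) held Afg3l2, 1.74-fold higher.

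**Figure D4:**
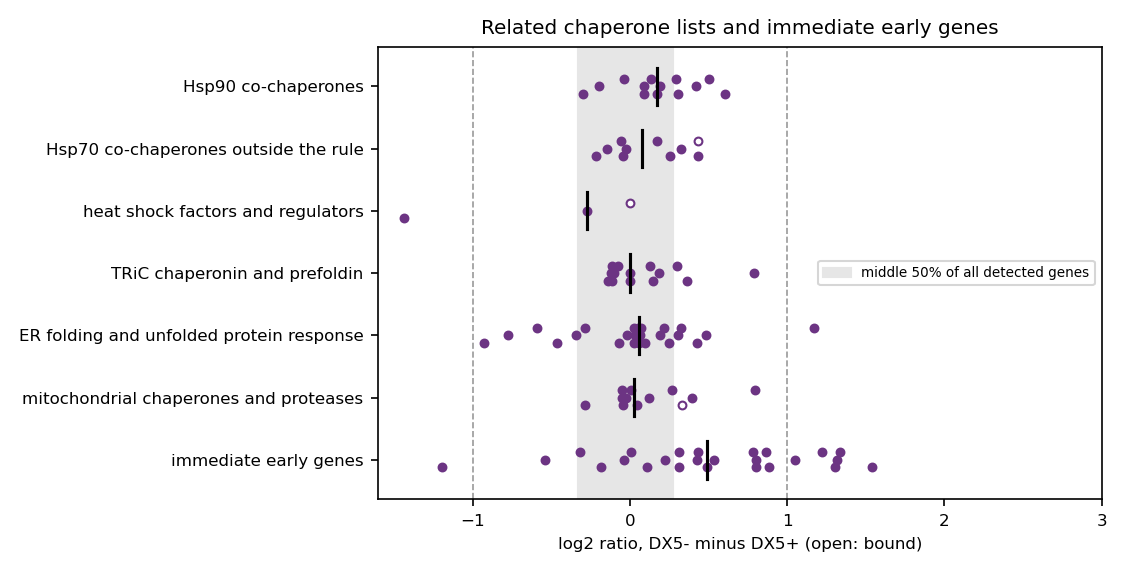
Log2 ratio (DX5- minus DX5+) of the detected genes in 6 chaperone-related lists and of 25 immediate early genes, with 1 array per population. Points are genes, open points lower bounds, black bars list medians, the grey band the middle 50% of all detected genes and dashed lines 2-fold; the chaperone lists centre near 0 and the immediate early genes at 0.49.

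Genes of other kinds differed in the same comparison. Immediate early genes, which respond to stimulation or handling within a short time, were higher in DX5- cells for 20 of 25, with a median of 0.49 and summed intensities of 297180 and 223758. Of these 6 were at least 2-fold higher, namely Fos, Fosb, Jun, Junb, Egr2 and Atf3, and Klf2 was 2.28-fold lower. Junb, the highest, read 17757 and 6117. Some stress-inducible members and these genes were thus higher on the same array, and the part of the immediate early genes in the members' differences was not tested.

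Markers of other cell types also differed. Of 15 T cell markers 13 were detected, 12 above 0 and 1 below, and 7 were at least 2-fold higher in DX5- cells. Summed intensities of the list were 37285 and 16915, and Cd3g held the largest part of this difference. Cd3g read 14036 and 1072 although CD3 had been gated out. The marker below 0 was Cd28, bright on both arrays (7668 and 8442). Cd8a read 206 and 81.3, at least 1.93-fold higher, and Cd4 and Cd8b1 were below the limit on both arrays. At least 2-fold lower were 7 of 10 platelet markers (sums 1871 and 6341), with Itgb3 2.66-fold higher, and 4 of 7 detected neutrophil markers (4845 and 10172), with Mmp9 4.74-fold higher. The same held for macrophage and Kupffer cell markers, 4 of 5 detected of 14 (1304 and 4135), with none 2-fold higher. The Kupffer cell genes Clec4f, Timd4 and Marco were below the limit on both arrays. B cell markers (7 of 8 detected, sums 1822 and 1442), hepatocyte markers (5 of 8, 1528 and 2294) and endothelial markers (4 of 10, 1175 and 1547) held 1 gene past 2-fold between them. The part of these cells in the members' values was not tested, and in bulk samples fewer cells of a type and less RNA per cell cannot be told apart.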

How the data were processed

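Total RNA of the sorted cells was labelled and hybridised to Affymetrix arrays, 1 per population. The authors deposited linear intensity values of 45101 probe sets, made with MAS5 per the submitters' processing notes. The sources used here do not give its settings or scaling. No further normalization was applied. Of these probe sets 34958 carried 1 gene symbol in the platform annotation, 932 several and 9211 none, and control probe sets were left out. All 78 members matched a RefSeq gene by gene ID. The detection limit was the 95th percentile, on each array, of 154 probe sets of opsins, crystallins, keratin-associated proteins and the olfactory, taste and vomeronasal receptors. Where 1 array was below its limit, the limit took the place of its value, so the fold is a bound. With 1 array per population no test, SD or interval between samples was possible, and the number of arrays limits the precision.

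The members and gene lists were chosen with earlier results of these data known. Named were the detected members of all families except Dnajb and Dnajc, of these 2 the members at least 1.5-fold apart and the bounds, and from the chaperone lists Hsf1, Hsf2 and genes at least 1.5-fold apart. Motifs were searched on both strands of RefSeq promoters. Calculations used Python 3.11.15, pandas 2.3.3, numpy 2.4.6 and matplotlib 3.10.9, and were tested on simulated data. The scaling, detection limit, probe set choice, pseudocount and fold threshold were varied.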

Additional observations from a re-analysis of the deposited data

How the results depend on the processing

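Alternatives that moved a count or a family median were few. The count of members at least 2-fold higher was 3, and it was 5 with spike-in scaling (8.06% of members, 6.52% of all genes), 9 with no detection limit (11.5% and 10.4%) and 10 at a 1.5-fold threshold (16.1% and 10.6%), so the share of all genes rose as well. The count at least 2-fold lower was 0, and it was 1 in the mean over probe sets (Dnajc17, named after its value was seen), 3 with no limit (3.85%, all genes 15.6%) and 3 at 1.5-fold (4.84%, all genes 13.5%). The Hspa median was 0.20 and became 0.55 with no limit, and the Hspb median was 0.43 and became 0.10 with the limit at the array median. Other counts stayed within 1.5 times, and other medians within the SD between probe sets of a gene (0.32), in the comparisons run. Of 37 named members 26 kept their sign in every setting run, and so did 13 of the 13 members at least 1.5-fold apart wherever a value could be had. A limit without the Crybg genes, which are expressed here, and a restriction to genes above both limits were chosen after seeing the data. No paired analysis was possible because each population had 1 array and no replicate number, and no array could be left out. Near 1.5-fold, Hspa1a and Dnaja1 (both 0.58 on the log2 scale) lay within the threshold with quantile normalization, and Dnajb13 (0.54) with a pseudocount of 50. Values near the limits, such as those of Dnajc28, are the least firm.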

Other observations

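Over all genes, 49 detected genes had the 3-unit heat shock motif in a RefSeq promoter, with a median log2 ratio of 0.016 and 53.1% above 0, against a median of -0.015 over 8046 detected genes with a promoter. Several probe sets passed both limits in 31 members. In 17 of these the absolute log2 ratio of the brightest was smaller than the mean of the absolute log2 ratios of the others.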
